A study of Mus musculus with 20 samples.

Results

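Cells that had received both fragments of the NF-kB subunit p65/RelA were compared with cells that had received its N-terminal fragment alone. Members were 8 of the 20 arrays of the series, chosen by their titles: 5 arrays of residues 1 to 361 together with residues 362 to 549 (N+C, title numbers 16 to 20) and 3 arrays of residues 1 to 361 alone (N-fragment, 13 to 15). All were total RNA from a plasmid-transfected mouse B16 melanoma line labelled Bcr-Abl+, that is, carrying the Bcr-Abl fusion kinase, which the controls carry too. The strain field reads mouse C3H eOuJ for every sample. Beside these stood 3 arrays of void plasmid (1 to 3, titled Blanck and read as void) and 3 of residues 362 to 549 alone (C-fragment, 10 to 12), so that the C-fragment could be followed with and without the N-fragment. The other 6 arrays, 3 of wild-type p65 and 3 of the non-cleavable D361E form, entered only the estimate of spread. The labels do not state whether transfection was transient or stable, whether a group is 1 clone or a pool, how much plasmid was used, or how replicates were made, so each p-value speaks of the spread between these samples alone, which may be technical.

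NF-kB is a family of dimeric transcription factors held in the cytoplasm by IkB proteins until the IKK complex marks IkB for destruction. The N-terminal part of p65 holds the Rel homology region, which binds DNA, IkB and other family members, and the C-terminal part holds the transactivation domains. NF-kB induces its own brakes, among them IkB-alpha and A20, together with survival genes and chemokines, and in melanoma it has been tied to inflammation and invasion.

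Levels are given as the log2 Cy3 intensity of a gene's probe minus the 75th percentile of its array, so that a level of 0 equals that percentile. Differences are N+C minus N-fragment in log2 units with their standard error, and a gene was called changed at a Benjamini-Hochberg adjusted p under 0.05 in limma. Between 51.1 and 57.9% of spots were well above background per array over the series, and 18737 genes were tested. The number of arrays limits the precision. Because RNA came from whole cultures, fewer cells of a type and less RNA per cell cannot be told apart.

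The 5 N+C arrays did not form 1 group. Arrays 16 to 18 differed from each other by a median absolute log2 difference of 0.11 to 0.13 over genes, and arrays 19 and 20 by 0.13. Across these sets the difference was 0.25 to 0.33, about as large as that between N-fragment arrays and arrays 16 to 18 (0.26 to 0.35) or arrays 19 and 20 (0.22 to 0.33). The N-fragment arrays differed from each other by 0.10 to 0.24, with array 13 apart from 14 and 15. Array 13 was nearer to N+C array 20 (0.22), which shared its slide, than to array 15 (0.24). N-fragment array 14 and N+C array 18, also on 1 slide, differed by 0.26. Between the sets 5713 genes were called (30.5%), 2548 higher (13.6%) and 3165 lower (16.9%) on arrays 16 to 18. Arrays 16 and 19, 1 from each set, shared a slide and differed from each other by 0.25. The labels give the sets no name, and what divides them was not tested. Results are therefore given for N+C as a whole and for each set.

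To describe what the added C-fragment went with, N+C was set against N-fragment over all genes. Of 18737 genes 4136 were called (22.1%), 2353 higher (12.6%) and 1783 lower (9.52%) with N+C, and 671 of them by at least 2-fold. Arrays of the groups did not overlap for 3546 of the called genes (18.9% of all genes tested; 10.8% higher and 8.15% lower) and overlapped for the other 590. Called or not, arrays did not overlap for 22.3% of genes, 12.5% higher and 9.84% lower. With arrays 16 to 18 in place of all 5, 6263 genes were called (33.4%; 17.8% higher and 15.7% lower), and with arrays 19 and 20, 5080 (27.1%; 16.2% higher and 10.9% lower). These comparisons share the N-fragment arrays. Of the 4136 called genes 1604 (38.8%) also differed between the sets, and so did 4109 genes that were not called. Both groups were present on slides 2 and 4: array 20 minus array 13 had the called direction in 4072 of 4134 genes and array 18 minus array 14 in 4118 of 4127, given as a description, since these arrays took part in the calls. With slide as a fixed block 4893 genes were called. A fit with only the groups compared called 1927 genes. Among genes named below it did not call Rela, Nfkbie, Traf5, Chuk, Ikbkb, Csf1, Trpm1, Rtp4, Col4a2, Col1a1, H2-K1, H2-D1 or H2-T23. Their adjusted p in limma ran from 0.0504 for Rtp4 to 0.235 for Csf1. Single results for Ccl5, Bcl3, Birc5, Mitf and Ccnd1, also called below, were not taken under this or other alternatives. Left unscaled between arrays, the values gave 1129 genes higher and 2373 lower, and the median over genes moved from 0.02 to -0.10, so small shifts upward depend on the scaling.

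Many genes of the NF-kB pathway were lower with both fragments than with the N-fragment alone. Over 5 lists of subunits, feedback inhibitors, IKK and receptor signalling, chemokines and survival genes, 60 members were measured, of which 20 fell and 4 rose, beside shares of 9.52% lower and 12.6% higher among all genes; with only the groups compared in the fit, 10 fell and 3 rose. Falls were seen in subunits (3 of 4 measured, median difference -0.71), in IkB and A20 feedback inhibitors (6 of 13, median -0.29), in chemokines and cytokines (4 of 13 fell and 2 rose, median -0.21, or -0.04 with 3 fallen after normexp background correction) and in anti-apoptotic genes (4 of 11, median -0.21), with no riser among subunits, feedback inhibitors or anti-apoptotic genes. IKK and receptor signalling genes moved both ways (2 of 19 rose and 3 fell, median -0.02).

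Among subunits, Rela itself stood at 4.51, 4.69 and 4.39 on the N-fragment arrays and at 4.35, 4.34, 4.28, 4.32 and 4.42 on the N+C arrays. The groups overlapped, and the difference of -0.18 ± 0.06 (adjusted p = 0.0451) lost its call without N-fragment array 13 (adjusted p = 0.0815) or 14 (adjusted p = 0.298) and without N+C arrays 16, 17, 18 or 19 in turn. The position of the Rela probe against the fragments is not given in the sources used here, so it does not check the transfections. Relb, the partner subunit of the alternative pathway, stood at 0.43, 0.36 and 0.17 with the N-fragment and at -1.05, -0.93, -0.80, -0.70 and -0.76 with N+C. Every N+C array was lower, a 2.25-fold fall (-1.17 ± 0.10, adjusted p = 5.38e-07), and the sets were not called different (adjusted p = 0.234). Nfkb2, which encodes the p100 precursor of that pathway, had levels of 1.83, 1.38 and 1.20 against 0.30, 0.15, 0.30, 0.58 and 0.62, again without overlap (-1.08 ± 0.17, adjusted p = 0.000247). The p105 precursor gene Nfkb1 was not called (-0.34 ± 0.15, adjusted p = 0.134).

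Among feedback inhibitors the deubiquitinating enzyme gene Tnfaip3 (A20) showed the widest gap. Its levels were -2.14, -2.48 and -2.46 with the N-fragment and -6.03, -5.65, -5.86, -5.72 and -5.34 with N+C, where it was above background on 1 of 5 arrays. The groups were far apart in both sets (-3.36 ± 0.13, adjusted p = 6.4e-11; -3.49 for arrays 16 to 18 and -3.17 for arrays 19 and 20). Void plasmid stood at -4.43 ± 0.04 (SD, n = 3), and with the C-fragment no array was above background. Nfkbia, the gene of IkB-alpha, stood at 2.85, 2.67 and 2.69 against 1.83, 1.69, 1.78, 1.39 and 1.53. It was 2.13-fold lower with N+C (-1.09 ± 0.10, adjusted p = 7.99e-07), without overlap, and close to void plasmid (1.59 ± 0.10, SD, n = 3). Nfkbie, which encodes IkB-epsilon, differed between the sets (adjusted p = 2.72e-05): N-fragment arrays read -0.49, -0.54 and -0.62, arrays 16 to 18 read -1.76, -1.72 and -1.77, and arrays 19 and 20 read -0.87 and -0.84. Its fall was thus -1.20 in the first set and -0.31 in the second (all 5 arrays: -0.84 ± 0.20, adjusted p = 0.00665). The nuclear IkB gene Bcl3 fell 1.53-fold (-0.61 ± 0.14, adjusted p = 0.00537).

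The kinase genes of the IKK complex fell by small amounts: Chuk, which encodes IKK-alpha, by 1.15-fold (-0.21 ± 0.04, adjusted p = 0.00335) and Ikbkb, which encodes IKK-beta, by 1.14-fold (-0.19 ± 0.06, adjusted p = 0.027). The Ikbkb call was lost without N-fragment arrays 13 (adjusted p = 0.126) or 14 (adjusted p = 0.0595) and without N+C arrays 16 or 17. After normexp background correction neither kinase gene was called (adjusted p = 0.0551 for Chuk and 0.0534 for Ikbkb). Upstream of them, the TNF receptor gene Tnfrsf1a rose: 2.48, 2.64 and 2.69 with the N-fragment against 3.12, 3.24, 3.13, 3.36 and 3.29 with N+C (0.63 ± 0.07, adjusted p = 1.24e-05). The adaptor gene Traf5 rose 2.34-fold (1.22 ± 0.27, adjusted p = 0.00413), more on arrays 19 and 20 (1.79) than on arrays 16 to 18 (0.85, adjusted p of the difference = 0.0106).

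Of 11 anti-apoptotic genes 4 fell, Birc2, Birc3, Gadd45b and Birc5, and 7 were not called. Birc2, encoding the ubiquitin ligase cIAP, stood at -0.47, -0.59 and -0.53 with the N-fragment and at -1.84, -1.85, -1.76, -2.17 and -2.28 with N+C. All N+C arrays were lower (2.73-fold, -1.45 ± 0.11, adjusted p = 7.1e-08) and near void (-2.42 ± 0.18, SD, n = 3). Its neighbour in function Birc3 was above background on all 3 N-fragment arrays and on none of the 5 N+C arrays, at least 3.48-fold lower (adjusted p = 1.12e-05). Gadd45b, a stress-response gene that restrains JNK signalling, stood at -0.41, -0.63 and -0.55 against -1.66, -1.69, -1.69, -1.60 and -1.34 (-1.07 ± 0.10, adjusted p = 1.03e-06). N+C remained above void there (-2.24 ± 0.10, SD, n = 3).

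Of the chemokines, Cxcl10, which draws T cells, stood at 2.64, 2.72 and 2.59 with the N-fragment and at 1.42, 1.58, 1.51, 1.43 and 1.41 with N+C. The 2.27-fold fall (-1.18 ± 0.07, adjusted p = 5.48e-09) was alike in size in both sets (-1.15 and -1.23), and N+C still lay above void (0.63 ± 0.17, SD, n = 3). Ccl5 had levels of 3.93, 3.63 and 3.48 against 3.35, 3.27, 3.14, 2.81 and 3.02 (-0.56 ± 0.15, adjusted p = 0.0145), with void at 0.06 ± 0.18 (SD, n = 3), so both transfected groups lay far above void. Csf1, the macrophage growth factor gene, fell on arrays 16 to 18 (-1.08) but not on arrays 19 and 20 (-0.06), and its call over all arrays (adjusted p = 0.0408) was lost without any single array other than 19 or 20. The membrane-bound chemokine gene Cx3cl1 rose (0.54 ± 0.14, adjusted p = 0.00999), though without N-fragment array 15 it was not called (adjusted p = 0.0515). Cxcl1 was not well above background in either group and Il15 on no N-fragment array and 3 of 5 N+C arrays, so neither is given a fold, though both count among the called members.

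**Figure D1:**
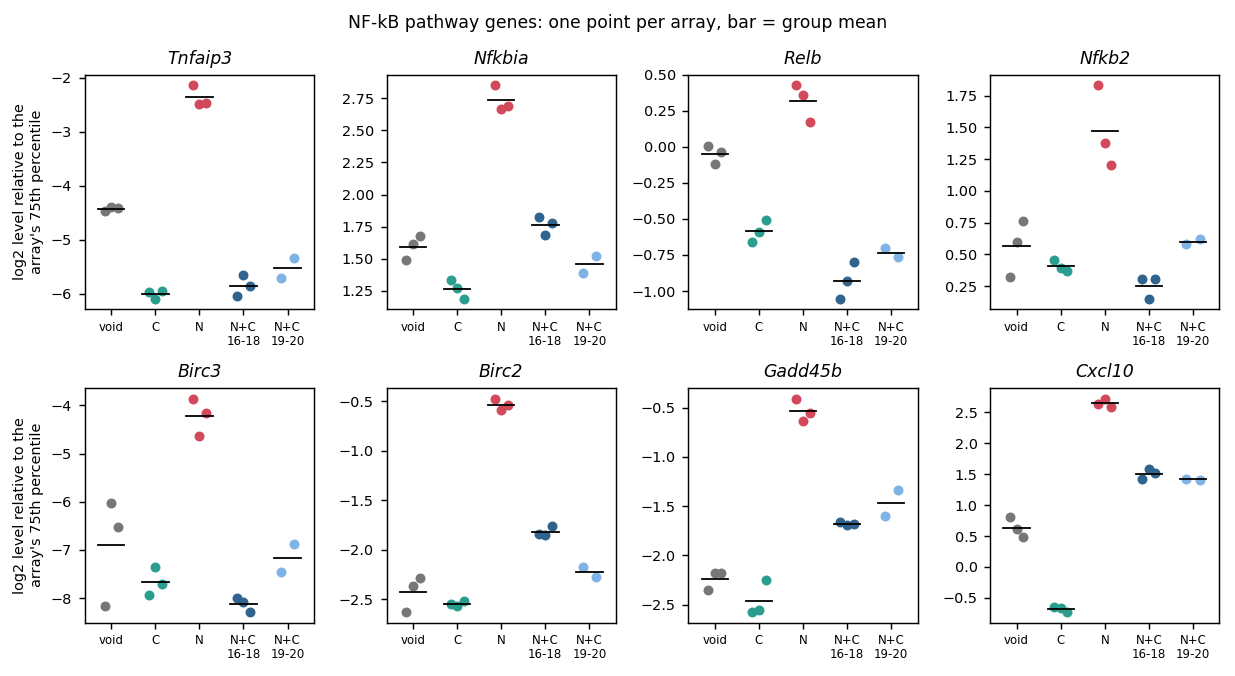
Levels of 8 NF-kB pathway genes, 1 point per array, on the log2 scale relative to each array's 75th percentile (vertical axis), for void, C-fragment, N-fragment and each N+C set (horizontal axis), with bars at group means. In each panel the 3 N-fragment arrays lie above all 5 N+C arrays; for Nfkbia they lie between 2.67 and 2.85 and the N+C arrays between 1.39 and 1.83.

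The 250 bases before their annotated starts were searched for the kB consensus, the decamer that NF-kB dimers bind, on both strands. Promoters of 5 genes that fell and hold a match are shown, with matched bases in capitals, from RefSeq on build GRCm38.p6. Cxcl10 (chr5:92348890-92349139, minus strand) holds 3 matches, of which a pair overlap, and Nfkb2 (chr19:46304487-46304736, plus strand, the first of 3 annotated starts) also holds 3, a pair of them overlapping. Tnfaip3 (chr10:19015411-19015660, minus strand, the first of 2 starts) holds 2, and Nfkbie (chr17:45555450-45555699, plus strand) and Nfkbia (chr12:55492648-55492897, minus strand) hold 1 each. Overlapping matches appear as 1 run of capitals, and a match on the opposite strand is printed as it reads on the promoter's strand.
Cxcl10: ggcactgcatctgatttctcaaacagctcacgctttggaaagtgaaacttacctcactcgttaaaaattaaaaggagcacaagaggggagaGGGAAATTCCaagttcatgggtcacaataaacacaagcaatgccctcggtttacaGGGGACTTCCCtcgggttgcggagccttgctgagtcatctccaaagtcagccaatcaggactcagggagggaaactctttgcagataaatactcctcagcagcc
Nfkb2: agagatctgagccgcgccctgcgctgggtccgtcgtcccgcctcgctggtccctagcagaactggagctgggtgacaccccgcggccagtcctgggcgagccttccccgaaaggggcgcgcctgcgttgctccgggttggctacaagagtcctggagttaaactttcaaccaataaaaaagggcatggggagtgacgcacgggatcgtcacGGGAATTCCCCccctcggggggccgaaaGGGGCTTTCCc
Tnfaip3: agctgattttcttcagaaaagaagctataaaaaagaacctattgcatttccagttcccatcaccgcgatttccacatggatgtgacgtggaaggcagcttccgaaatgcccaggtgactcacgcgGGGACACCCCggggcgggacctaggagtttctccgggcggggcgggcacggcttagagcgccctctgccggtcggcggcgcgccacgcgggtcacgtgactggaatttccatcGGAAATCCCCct
Nfkbie: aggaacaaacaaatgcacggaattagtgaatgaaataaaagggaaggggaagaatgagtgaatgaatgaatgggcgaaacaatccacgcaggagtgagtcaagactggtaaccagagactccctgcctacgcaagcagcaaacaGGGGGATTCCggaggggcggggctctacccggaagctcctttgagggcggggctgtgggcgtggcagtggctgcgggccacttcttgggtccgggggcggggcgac
Nfkbia: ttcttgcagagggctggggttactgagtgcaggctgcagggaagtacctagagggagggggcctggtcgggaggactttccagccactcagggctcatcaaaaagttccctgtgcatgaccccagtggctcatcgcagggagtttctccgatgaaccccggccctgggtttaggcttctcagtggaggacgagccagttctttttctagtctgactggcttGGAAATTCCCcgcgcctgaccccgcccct
No match was found in this window for Birc2, Birc3 or Gadd45b, which says only that these letters are not in it. Over all tested genes with a promoter in the table, 1135 of 11034 (10.3%) held a match. Among genes called lower with N+C the share was 10.6% (130 of 1232) and among those called higher 11.2% (182 of 1622), both near that of all genes. Of the members of the 5 NF-kB lists that were called lower, 9 of 17 held one (52.9%), beside 9 of 33 (27.3%) of their other measured members. A match is a description and not a bound site.

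The largest differences were genes above background in one group and not in the other. Dkk3, a secreted glycoprotein of the Dickkopf family, was not well above background on any N-fragment array and read 1.61, 1.61, 1.47, 0.36 and 0.36 on the N+C arrays, at least 100-fold higher (adjusted p = 1.46e-10). Void (1.83 ± 0.24, SD, n = 3) and all 3 C-fragment arrays had it above background too, so the N-fragment arrays were the ones apart. Tor4a, a torsin-family ATPase gene, had the same pattern: 0.74, 0.73, 0.71, 0.49 and 0.54 with N+C and at least 73.6-fold below that on the N-fragment arrays (adjusted p = 4.07e-13). Asb2, which encodes a substrate receptor of a ubiquitin ligase (at least 10.3-fold higher, adjusted p = 3.66e-10), and Lysmd2, a LysM domain gene (at least 10.2-fold higher, adjusted p = 8.49e-10), were also not well above background with the N-fragment.

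In the other direction, Tubb2b, a neuronal beta-tubulin gene, read 0.70, 0.72 and 0.68 on the N-fragment arrays and was not well above background on any N+C array, at least 105-fold lower (adjusted p = 5.72e-14). The C-fragment alone had it at -0.62 ± 0.16 (SD, n = 3), so each fragment alone gave a level that was missing when both were given. Tubulin genes are close copies, and signal from a relative cannot be told apart by the probe. Krba1, a zinc-finger-associated gene, read -0.93, -1.10 and -1.25 with the N-fragment, -0.85 ± 0.06 with void and -0.43 ± 0.10 with the C-fragment (SD, n = 3 each), and was below background on all 5 N+C arrays (at least 30.4-fold lower, adjusted p = 7.99e-17). There N+C was the group apart from every other group named. Fkbp10, an isomerase of the endoplasmic reticulum that assists collagen folding, fell at least 38.9-fold (adjusted p = 3.06e-10) and Afp, the fetal serum protein gene, at least 22.3-fold (adjusted p = 5.5e-11).

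Among genes measured in both groups, Foxr2, a forkhead transcription factor gene, rose most. It read -5.63, -5.30 and -4.85 on the N-fragment arrays, -1.72, -1.56 and -1.93 on arrays 16 to 18, and 0.49 and 0.54 on arrays 19 and 20. The dimmest well-measured signals on the N-fragment arrays were -5.96, -5.49 and -5.24. Foxr2 thus lay near the floor there, and the size of its rise depends on that. Both sets lay above the N-fragment (4.42 ± 0.48, adjusted p = 6.07e-06), and void was higher still (1.18 ± 0.14, SD, n = 3). The drug efflux transporter gene Abcg2 read -2.71, -2.96 and -3.06 against 0.82, 0.73, 0.69, 0.79 and 0.84, a 12.9-fold rise (3.68 ± 0.07, adjusted p = 1.82e-15) of the same size in both sets (3.66 and 3.73). The carbonyl reductase gene Cbr3 rose 13.8-fold (3.78 ± 0.11, adjusted p = 1.08e-12). Hsd11b1, which regenerates active glucocorticoid, rose 9.91-fold (3.31 ± 0.18, adjusted p = 2.76e-09) to levels of -0.46, -0.56, -0.49, -1.29 and -1.37, above void (-2.94 ± 0.12, SD, n = 3) as well.

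The other 8 of the 12 largest rises ran from 3.25 (Rgs2, an inhibitor of G-protein signalling) to 2.61 (Fam241b). They included Lcp1, the actin-bundling L-plastin of blood cells (3.20 ± 0.11), Lmo1, a LIM-only transcriptional cofactor (3.20 ± 0.27), and Ifi47, an interferon-gamma-inducible GTPase (3.07 ± 0.10). Cort, the cortistatin gene, rose by 3.91 on arrays 16 to 18 and by 1.56 on arrays 19 and 20 (adjusted p of the difference = 9.37e-11). Arl11 was above background on 2 of 3 N-fragment arrays (2.94 ± 0.39).

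Among the 12 largest falls, Lamb1, a laminin beta chain, read 2.47, 2.19 and 2.16 with the N-fragment, -2.96, -3.35 and -3.49 on arrays 16 to 18, and -1.16 and -1.17 on arrays 19 and 20. No array overlapped (26.0-fold, -4.70 ± 0.44, adjusted p = 1.28e-06). Axl, the receptor tyrosine kinase, read 0.75, 0.36 and 0.47 against -3.82, -3.37, -3.62, -2.43 and -2.28 (12.4-fold, -3.63 ± 0.28, adjusted p = 1.53e-07), with void at -3.18 ± 0.25 (SD, n = 3). The type I collagen gene Col1a2 read 1.52, 1.33 and 1.14 against -2.61, -2.84, -2.89, -1.24 and -1.22 (-3.49 ± 0.33, adjusted p = 1.61e-06), here below void (0.46 ± 0.19, SD, n = 3) in both sets.

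Timp3, an inhibitor of matrix metalloproteinases, fell 9.70-fold (-3.28 ± 0.27, adjusted p = 2.95e-07), Rgs16, a relative of Rgs2, 10.9-fold (-3.45 ± 0.50, adjusted p = 9.97e-05) and the junctional adhesion gene Jam3 6.26-fold (-2.65 ± 0.18, adjusted p = 2.49e-08). The pattern of Rgs2 and Rgs16, which both switch off G-protein signals, was thus opposite. The homeobox gene Hoxd13 read -1.47, -1.25 and -1.16 with the N-fragment, -3.60, -3.42 and -3.67 on arrays 16 to 18, and -5.25 and -5.30 on arrays 19 and 20 (-2.96 ± 0.36, adjusted p = 1.91e-05).

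**Figure D2:**
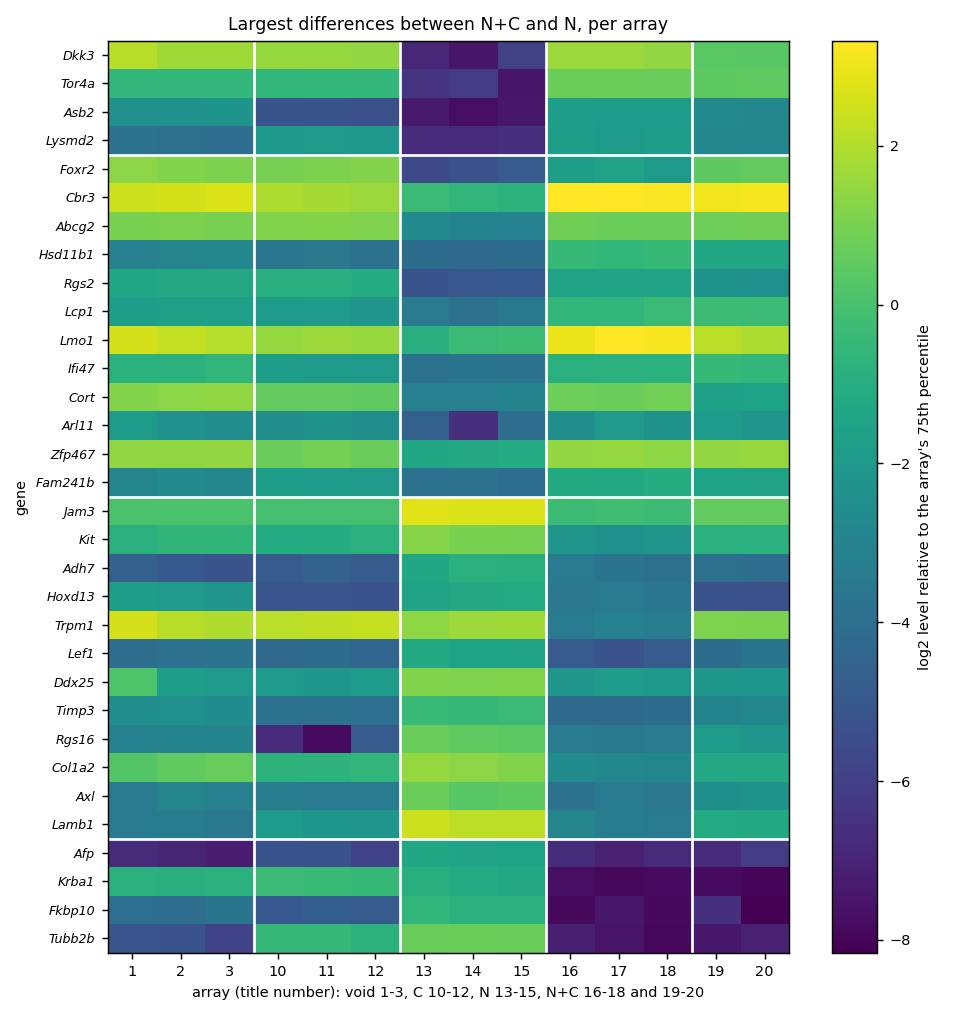
Levels of the 4 genes on, 12 largest rises, 12 largest falls and 4 genes off with N+C (rows), per array (columns, by title number), coloured by log2 level relative to the array's 75th percentile. Columns 13 to 15 (N-fragment) differ from columns 16 to 20 in every row, because only genes whose arrays do not overlap were chosen. For many rows, such as Dkk3 and Abcg2, the N+C columns resemble void and C-fragment.

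Lists of genes were then read against the share of all genes called, 12.6% higher and 9.52% lower. Counts by set have other shares beside them. Against the N-fragment these were 17.8% higher and 15.7% lower for arrays 16 to 18, and 16.2% and 10.9% for arrays 19 and 20. Between the sets 13.6% of genes were higher and 16.9% lower on arrays 16 to 18. Melanocyte lineage regulators fell: 7 of 12 measured members and none rose (median -0.35). Kit, the receptor for stem cell factor, read 1.22, 1.00 and 0.99 with the N-fragment against -2.17, -2.36, -2.17, -0.87 and -0.81 (6.69-fold, -2.74 ± 0.30, adjusted p = 6.07e-06). Lef1, a transcription factor of the Wnt pathway, read -1.21, -1.51 and -1.56 against -4.89, -5.19, -4.81, -4.09 and -3.71 (8.66-fold, -3.11 ± 0.26, adjusted p = 3.66e-07). For both genes all N+C arrays were lower and void plasmid stood nearer N+C, at -0.72 ± 0.13 for Kit and -3.88 ± 0.14 for Lef1 (SD, n = 3). Mitf, the master regulator of the lineage, fell 1.41-fold (-0.50 ± 0.07, adjusted p = 3.9e-05), from 6.23, 6.24 and 6.30 to 5.92, 5.81, 5.77, 5.54 and 5.75. Pigment genes moved little: 4 of 14 rose and 1 fell (median 0.08, or -0.04 without scaling), among the risers the tyrosinase gene Tyr (0.31 ± 0.06, adjusted p = 0.00224, not called without scaling) and the melanosome motor gene Myo5a (0.47 ± 0.06, adjusted p = 3.33e-05).

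Genes of the invasive melanoma state were lower as well, with 4 of 7 measured members called lower and 1 higher (median -0.52). Ngfr, the neurotrophin receptor of dedifferentiated melanoma cells, read -0.51, -0.95 and -1.11 against -5.84, -6.10, -5.70, -5.68 and -5.28, above background on 2 of 5 N+C arrays (-4.86 ± 0.22, adjusted p = 3.66e-10). Ccn2, a matricellular protein gene, fell (-0.96 ± 0.16, adjusted p = 0.000492) while its relative Ccn1 rose (0.43 ± 0.11, adjusted p = 0.00739, but not called without scaling). In the mesenchymal list 3 of 20 members fell, Tagln and Mmp2 among them, and none rose. Tagln, an actin-binding gene of smooth muscle, read -0.74, -0.98 and -1.05 against -3.07, -2.63, -2.63, -3.01 and -3.04 (-1.95 ± 0.21, adjusted p = 6.86e-06).

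Collagen and basement membrane genes moved both ways, 6 of 17 lower and 4 higher. While Col1a1, Col1a2 and Lamb1 fell, the basement membrane collagen gene Col4a1 rose from -3.46, -3.78 and -3.68 to -1.68, -1.77, -1.65, -1.95 and -2.07 (3.52-fold, 1.82 ± 0.11, adjusted p = 1.18e-08), and its partner Col4a2 rose 2.06-fold (1.04 ± 0.24, adjusted p = 0.00525). Integrin and focal adhesion genes also moved both ways, 7 of 19 higher and 5 lower (3 and 5 without scaling). Itga4, the alpha chain that binds the endothelial receptor VCAM, rose from 2.42, 2.37 and 2.49 to 3.63, 3.59, 3.60, 2.78 and 2.98 (0.89 ± 0.16, adjusted p = 0.00063), and the focal adhesion gene Lims2 fell from 5.26, 5.09 and 5.04 to 4.17, 4.07, 4.24, 3.33 and 3.63 (-1.24 ± 0.22, adjusted p = 0.000715).

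**Figure D3:**
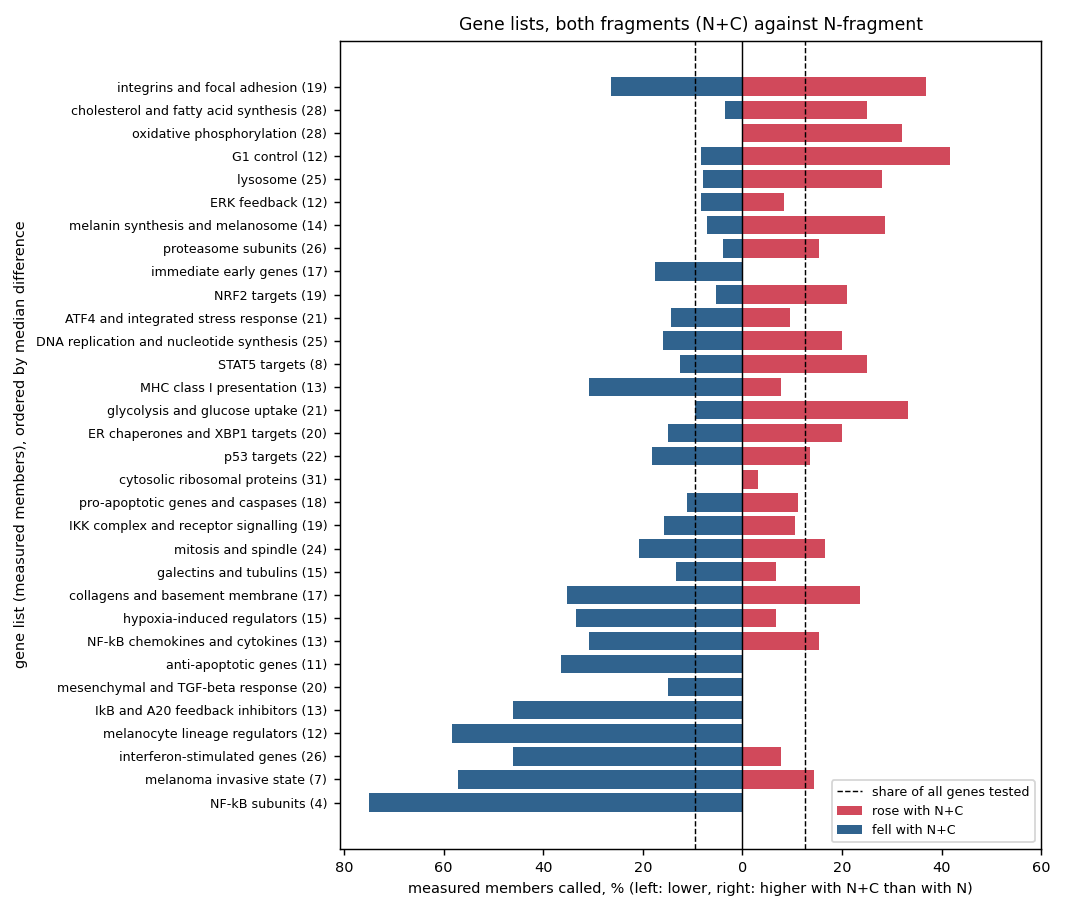
Share of measured members called lower (bars to the left) or higher (to the right) with N+C than with the N-fragment, in percent, for 32 gene lists ordered by median difference; dashed lines mark the shares among all genes tested, 9.52% and 12.6%. NF-kB subunits (3 of 4 lower) and interferon-stimulated genes (12 of 26 lower) lie far left, and oxidative phosphorylation (9 of 28 higher, none lower) on the right.

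Among interferon-stimulated genes 12 of 26 measured members fell and 2 rose (median -0.48; 4 and 1 with only the groups compared in the fit), and more so on arrays 16 to 18 (18 fell, 2 rose, median -0.61) than on arrays 19 and 20 (9 fell, 7 rose, median -0.09). Between the sets 16 of the 26 were lower on arrays 16 to 18 and none higher. Oasl1, an antiviral oligoadenylate synthetase-like gene, read -1.28, -1.38 and -1.44 with the N-fragment, -3.98, -3.98 and -3.88 on arrays 16 to 18, and -2.91 and -3.04 on arrays 19 and 20 (-2.19 ± 0.23, adjusted p = 3.98e-06), lower in both sets. Rtp4 (-1.49 ± 0.29, adjusted p = 0.00135) and Irf7, the master regulator of the interferon response (-2.12 ± 0.31, adjusted p = 0.000114, above background on 2 of 5 N+C arrays), followed it. Oas1a fell on arrays 16 to 18 (-2.09) and rose on arrays 19 and 20 (0.79), a gene named after its values were seen.

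Genes of MHC class I presentation differed between the sets. With all 5 arrays 4 of 13 fell and 1 rose, but 8 of 13 were lower on arrays 16 to 18 than on 19 and 20, with a median set difference of -2.15. H2-D1, a class I heavy chain gene, read 2.46, 2.33 and 2.27 with the N-fragment, -0.56, -0.62 and -0.60 on arrays 16 to 18, and 1.98 and 1.96 on arrays 19 and 20. Its fall was -2.94 in the first set and -0.38 in the second, and over all arrays (-1.92 ± 0.53, adjusted p = 0.0155) it lost its call without N-fragment array 13 (adjusted p = 0.0502) or 14 (adjusted p = 0.0503). H2-K1 (-2.88 and -0.73) and H2-T23 (-2.95 and -0.47) had the same pattern, though class I genes are near copies whose probes may share signal. The peptide transporter gene Tap1 differed from the N-fragment by -1.32 on arrays 16 to 18 and 1.25 on 19 and 20 but was above background on 1 of 3 N-fragment arrays, and Tap2 rose most on the latter (2.53, beside 0.37), both named after their values were seen.

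Sterol and fatty acid synthesis genes were higher chiefly on arrays 19 and 20. With all 5 arrays 7 of 28 members rose and 1 fell (median 0.16), but on arrays 19 and 20 alone 25 rose and none fell (median 0.52; 18 and 1 without scaling), while on arrays 16 to 18, 7 rose and 7 fell (median -0.01). The sets themselves differed in 24 of 28 genes, all lower on arrays 16 to 18, and in 24 without scaling. The desaturase gene Scd1 rose in both sets (0.53 and 0.82), and so did Srebf1, a transcription factor gene of lipid synthesis (0.80 and 0.60). Pmvk and Srebf2, named after their values were seen, went down on arrays 16 to 18 (-0.77 and -0.36) and up on 19 and 20 (0.45 and 0.38).

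Feedback genes of ERK signalling and immediate early genes ran the other way. On arrays 16 to 18, 7 of 12 ERK feedback genes were higher than with the N-fragment and none lower (3 and 1 without scaling). Of all genes 17.8% were higher there. On arrays 19 and 20 none was higher and 4 were lower, beside 10.9% of all genes lower. Between the sets 9 of 12 differed, all higher on arrays 16 to 18 (6 without scaling), beside 13.6% of all genes higher. Etv1 (0.66 and -0.30) and Spry1 (0.44 and -0.42), which encode an ERK-induced transcription factor and an inhibitor of the pathway, had opposite signs in the sets. The immediate early gene Egr1 read -2.74, -2.87 and -3.11 with the N-fragment, -1.58, -1.57 and -1.47 on arrays 16 to 18, and -3.99 and -3.89 on arrays 19 and 20, so the N-fragment lay between the sets. Etv1, Spry1 and Egr1 were named after their values were seen. Of 17 immediate early genes 5 rose and 2 fell on arrays 16 to 18, beside 17.8% and 15.7% of all genes. On arrays 19 and 20 none rose and 5 fell, beside 16.2% and 10.9%. Between the sets 8 were higher and 1 lower on arrays 16 to 18, beside 13.6% and 16.9%, and 8 were not called. Genes of the mesenchymal and TGF-beta list also divided by set: 10 of 20 members fell on arrays 19 and 20, beside 5 on arrays 16 to 18. The shares of all genes lower were 10.9% and 15.7%.

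**Figure D4:**
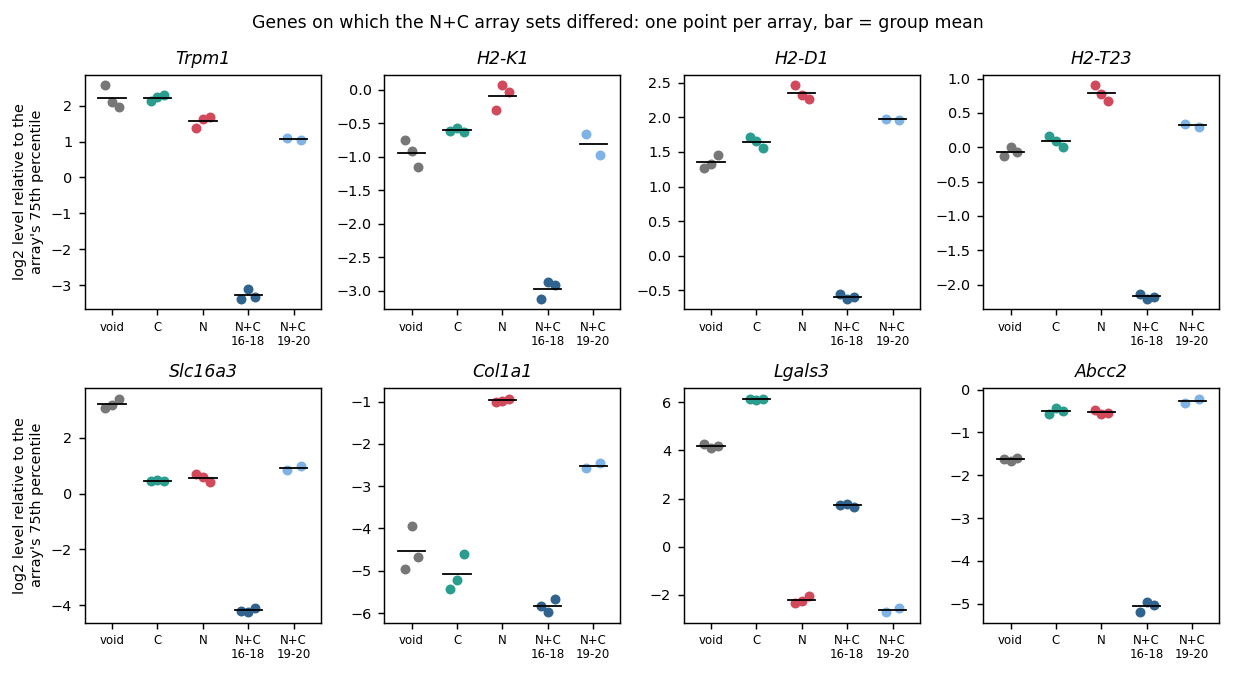
Levels of 8 genes on which the N+C sets differed, 1 point per array, on the log2 scale relative to each array's 75th percentile (vertical axis), by group (horizontal axis), with bars at group means. For Trpm1, H2-D1, Slc16a3 and Abcc2 arrays 19 and 20 lie near the N-fragment and arrays 16 to 18 far below; for Lgals3 arrays 16 to 18 lie between 1.67 and 1.77, above the N-fragment and arrays 19 and 20 and below void and C-fragment.

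Single genes separated the sets widely. Trpm1, the melastatin channel gene, read 1.39, 1.64 and 1.68 with the N-fragment, -3.37, -3.09 and -3.31 on arrays 16 to 18, and 1.09 and 1.05 on arrays 19 and 20. It fell by 4.83 in the first set and by 0.50 in the second, and over all 5 arrays its call (adjusted p = 0.0197) was lost without N-fragment arrays 14 or 15. The lactate exporter gene Slc16a3 read 0.71, 0.59 and 0.40, then -4.20, -4.24 and -4.09, then 0.85 and 0.99, and the efflux pump gene Abcc2 -0.48, -0.57 and -0.55, then -5.19, -4.96 and -5.03, then -0.32 and -0.21. Both were thus low only on arrays 16 to 18, and neither was called over all 5 (adjusted p = 0.0794 and 0.0704). Carhsp1, an RNA-binding protein gene, fell on arrays 16 to 18 (-2.65) and rose on arrays 19 and 20 (1.79).

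In the opposite direction, the galectin gene Lgals3 read -2.36, -2.25 and -2.08 with the N-fragment, 1.75, 1.77 and 1.67 on arrays 16 to 18, and -2.72 and -2.58 on arrays 19 and 20. Void (4.19 ± 0.07) and C-fragment (6.14 ± 0.03, SD, n = 3 each) were higher than all of these. Smad6, an inhibitor of BMP signalling, rose by 0.82 on arrays 16 to 18 and fell by 2.12 on arrays 19 and 20, and the myelin gene Mbp fell by 0.63 and 3.83. Tagln2, a relative of Tagln, read 3.57 and 3.38 on arrays 19 and 20, beside -1.03, -0.98 and -1.12 on arrays 16 to 18 and -0.56, -0.52 and -0.59 with the N-fragment.

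Of 28 oxidative phosphorylation genes 9 rose and none fell (median 0.13), or 3 with a median of 0.01 without scaling, with 15 higher on arrays 16 to 18 and 4 higher and 2 lower on arrays 19 and 20. Cox5a, a subunit of cytochrome oxidase, read 6.42, 6.51 and 6.41 against 6.93, 7.00, 6.91, 6.88 and 6.92 (0.48 ± 0.04, adjusted p = 1.13e-06), without overlap, and Cox7a2 rose likewise (0.58 ± 0.06, adjusted p = 1.72e-06). In glycolysis 7 of 21 rose and 2 fell (median 0.04 beside 0.02 for all genes), and 4 rose without scaling: the phosphofructokinase gene Pfkm rose 1.91-fold (0.93 ± 0.09, adjusted p = 1.17e-06) and the aldolase gene Aldoc 2.11-fold (1.08 ± 0.20, adjusted p = 0.000799), and the enolase gene Eno2 fell 1.63-fold (-0.70 ± 0.11, adjusted p = 0.000222). Of 25 lysosome genes 7 rose and 2 fell. The protease genes Ctsd and Ctsl went opposite ways, Ctsd from 5.98, 5.86 and 5.80 up to 6.58, 6.51, 6.53, 6.59 and 6.62 (0.69 ± 0.08, adjusted p = 1.27e-05) and Ctsl from 4.38, 4.32 and 4.27 down to 2.85, 2.86, 2.93, 3.46 and 3.49 (-1.20 ± 0.13, adjusted p = 5.9e-06). Ribosomal protein genes were nearly all uncalled, with 1 of 31 higher and a median of 0.01.

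To see whether the C-fragment went with the same change when the N-fragment was absent, C-fragment was compared with void, a comparison that shares no array with N+C against N-fragment. C-fragment against void called 2460 genes (13.1%), 915 higher (4.88%) and 1545 lower (8.25%). Without scaling this balance turned, to 2865 higher and 513 lower, with the median of genes at 0.21 in place of -0.02. Of these, 972 were also called for N+C against N-fragment, 39.5% of the first list and 23.5% of the second. Only 310 changed in the same direction, 119 upward and 191 downward, and 662 in opposite directions, 444 of them lower with the C-fragment alone and higher with N+C. Without scaling 245 had the same direction and 797 the opposite, but only 110 of these were lower with the C-fragment and higher with N+C, so which way they were opposed depends on the scaling. Across 18737 genes the differences had a Pearson correlation of -0.10 and a Spearman correlation of -0.17, given as a description, since genes of 1 array are not independent. The difference between the effects was itself called for 4327 genes (23.1%; 14.3% upward and 8.75% downward; without scaling 912 genes upward and 4391 downward), and for 2657 (64.2%) of the 4136.

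Cxcl10, Hoxd13 and Rgs16 moved by like amounts in both settings. The C-fragment went with a fall of Cxcl10 of 1.32 without the N-fragment and of 1.18 with it (difference 0.13, adjusted p = 0.398), of Hoxd13 of 3.21 and 2.96 (difference 0.25, adjusted p = 0.781) and of Rgs16 of 3.46 and 3.45 (difference 0.01, adjusted p = 0.993). With the C-fragment alone Hoxd13 was above background on 2 of 3 arrays and Rgs16 on 1 of 3. These p-values miss the threshold and do not show that the effects were equal, and after normexp background correction the difference for Rgs16 was called (-1.54, adjusted p = 0.00301). Tnfaip3 fell in both, by 1.57 without and 3.36 with the N-fragment (difference -1.78, adjusted p = 1.13e-05). With the C-fragment no array had it above background, and with N+C not all did, so these sizes depend on background. After normexp background correction the C-fragment differed from void by -0.62, and the difference between the effects was -0.91. Nfkbia, Birc2 and Gadd45b were called only with the N-fragment present, where each fell by over 1, and the differences were called too (-0.77, -1.33 and -0.84). Asb2, Cbr3 and Ifi47 turned direction: each was lower with the C-fragment than with void (-2.95, -0.82 and -1.15) and higher with N+C than with the N-fragment (5.29, 3.78 and 3.07), the value for Asb2 depending on background since no N-fragment array was above it.

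**Figure D5:**
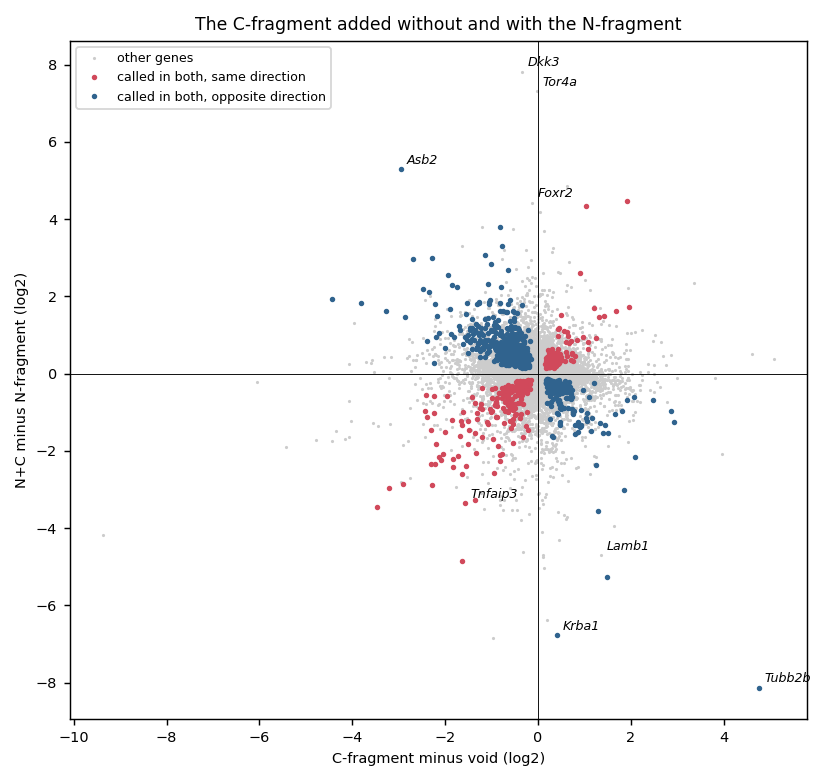
Log2 difference of C-fragment minus void (horizontal axis) against N+C minus N-fragment (vertical axis), 1 point per gene for 18737 genes. Red points mark the 310 genes called in both in the same direction and blue points the 662 called in opposite directions, 444 of which lie upper left, a share that depends on the scaling.

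The labelled cell type was checked against its markers. All 16 melanocyte markers passed the filter, and 15 of them exceeded background on each of the 20 arrays. The filter passed 4 of 20 markers of haematopoietic and B-lymphoid cells and 5 of 10 macrophage markers. It also passed 4 of 10 epithelial and 3 of 8 endothelial markers, and the others did not pass the filter on dim probes. Of those that passed, 4 haematopoietic and B-lymphoid, 3 macrophage, 2 epithelial and 2 endothelial markers exceeded background on each of the 20 arrays. Of 10 fibroblast markers 6 were measured and 3 fell and 1 rose with N+C, Col1a1 among those that fell, but none of the 6 was above background on all 20 arrays. Their part in the fall of matrix genes was not tested.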

How the data were processed

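RNA of 20 samples was hybridised in 1 colour (Cy3) to Agilent arrays, 5 slides of 4. The deposited values are spot intensities, which per the file headers came from Agilent Feature Extraction 10.7.3.1 with its background correction; a second deposited table holds the same intensities (100% equal). The number of arrays limits the precision.

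Levels were the log2 of this processed signal minus the array's 75th percentile. Controls and outlier spots were dropped, and saturation did not occur. The filter kept 23432 of 39429 probes, those well above background on 3 or more arrays, and the brightest probe stood for a gene. Of the probes, 28663 (72.7%) were named through RefSeq accessions (GRCm38.p6), and 4914 of the 18737 tested genes have no symbol. limma 3.58.1 in R 4.3.3 was fitted to all 20 arrays in 6 groups (7 with N+C divided), with Benjamini-Hochberg adjustment over all genes; the procedure was tested on simulated data. Genes not well above background on any array of a group were given as bounds against the dimmest well-measured signal. The files used here hold the median and not the mean spot signal, so the normexp alternative used the median.

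Named genes were Rela, the 12 largest non-overlapping rises and falls measured in both groups, the 4 largest bounds each way, as many as 3 called members each way from every list, and the 5 largest differences each way between sets. Other genes were named after their values were seen. The members, the division of N+C and the 32 gene lists were chosen with earlier results of these data known. Alternatives covered scaling, background, filter, probe choice, slide, samples in the fit, moderation, array weights and leaving out each array. Recounting the gene lists, and the genes called for both the C-fragment and N+C, under these settings was added after seeing the data. Promoters were matched by symbol for 11034 of 13823 genes. Results for some genes are not reported here.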

Additional observations from a re-analysis of the deposited data

Results flagged for a closer look

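Of 166 groups of 5 N+C values tested, 4 held an array far from the other 4. These were Gadd45b (highest, -1.34, array 20), Gstp1 (lowest, 5.70, array 19), Srebf1 (lowest, -1.85, array 20) and Ccnb1 (highest, 4.38, array 17). The rule flags about 1 in 20 groups when all 5 values are drawn alike. The N+C arrays fell into sets, so that rate does not apply to them.

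The level of 5713 genes differed between arrays 16 to 18 and arrays 19 and 20 of the same labelled group. The effect of the C-fragment differed with and without the N-fragment for 4327 genes. Of 46 named genes tested for this, 37 were called, beside 23.1% of all genes. These genes were chosen by their difference between N+C and N-fragment, which is part of the difference tested. A high number of calls thus follows from the choice and is no support. The values below are the effect with the N-fragment minus that without it, in log2 units.

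Among NF-kB genes the differences were -0.63 for Relb, -0.92 for Nfkb2, -1.78 for Tnfaip3, -0.77 for Nfkbia, -1.33 for Birc2, -2.76 for Birc3, -0.84 for Gadd45b and 1.74 for Il15. The sizes for Tnfaip3, Birc3 and Il15, each not above background in a group, depend on the background level. Among the largest rises they were 4.55 for Foxr2, 4.604 for Cbr3, 3.55 for Abcg2, 4.08 for Hsd11b1, 2.92 for Rgs2, 3.46 for Lcp1, 3.94 for Lmo1, 4.22 for Ifi47, 3.74 for Cort, 3.09 for Arl11, 3.33 for Zfp467 and 1.70 for Fam241b. Among the largest falls they were -6.07 for Lamb1, -3.43 for Axl, -2.33 for Col1a2, -1.92 for Timp3, -2.34 for Ddx25, -2.76 for Lef1, -3.003 for Adh7, -2.47 for Kit and -2.52 for Jam3. Genes not above background in a group gave 8.15 (Dkk3), 7.34 (Tor4a), 8.24 (Asb2), 2.56 (Lysmd2), -12.88 (Tubb2b), -5.88 (Fkbp10), -7.18 (Krba1) and -6.76 (Afp), sizes that depend on the background level and are no bounds.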

How the results depend on the processing

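N+C against N-fragment called 4136 genes, 1927 with only the groups compared in the fit (1901 of the 4136 in the same direction), 8246 with array weights, and 2888 to 4575 when each array was left out in turn, lowest without N-fragment array 14. Arrays 19 and 20 against N-fragment called 5080 genes, 2370 with only those groups, 8330 with array weights, and 3585 to 5408 without single arrays. Ranges without single arrays were 5295 to 5910 for arrays 16 to 18 against N-fragment and 3967 to 5030 between the sets. C-fragment against void called 2460 genes, 10657 with array weights, and 1434 to 2501 without single arrays: 1553 and 1516 without void arrays 2 and 3, and 1622, 1434 and 1542 without C-fragment arrays 10, 11 and 12. The difference between the effects was called for 4327 genes, 10514 with array weights, and 3399 to 4846 without single arrays. Fits with only the compared groups have fewer samples. In the fit with 6 groups array weights ran from 0.14 (array 20) to 10.08 (void array 2). N+C arrays 16 to 18 had 1.11, 0.76 and 1.09, array 19 had 0.15, and N-fragment array 14 had 4.70. For array weights the cause of the higher counts was not tested. Of 157 named calls of N+C against N-fragment, 60 were lost with only the compared groups, 27 without scaling, 23 with normexp, 22 without the filter on dim probes and 6 with slide as a fixed block, and Dnajb11 alone reversed, with the mean of a gene's probes (-0.22, adjusted p = 0.712 in limma; the cause was not tested). No paired analysis was possible because sample titles hold running numbers, which no groups share. Slide, which some arrays of both groups share, gave 4893 calls as a fixed block and 4908 as a random block. Signal over background limits the genes given as bounds.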

Other observations

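p53 target genes were mostly called for the C-fragment without the N-fragment. Against void, 14 of 22 measured targets were lower with the C-fragment and none higher, beside 8.25% lower and 4.88% higher among all genes. N+C against N-fragment had 3 higher and 4 lower, beside 12.6% and 9.52% of all genes. The difference between the effects was called for 15 of 22, 14 of them upward, beside 14.3% upward and 8.75% downward among all genes. Without scaling 8 were lower with the C-fragment, and the difference was called upward for 8 and downward for 3. The cell-cycle inhibitor gene Cdkn1a was lower by 1.35 with the C-fragment than with void and differed by 0.00 ± 0.15 between N+C and N-fragment (difference of effects 1.35, adjusted p = 0.000549).

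NRF2 targets were also called more often for the C-fragment without the N-fragment than for all 5 N+C arrays, but upward. With the C-fragment alone 9 of 19 were higher than with void, beside 4.88% of all genes. With N+C 4 were higher and 1 lower than with the N-fragment, beside 12.6% and 9.52%. By set, 6 rose and 7 fell on arrays 16 to 18, beside 17.8% and 15.7% of all genes. On arrays 19 and 20, 7 rose and 1 fell, beside 16.2% and 10.9%. Between the sets 3 were higher and 9 lower on arrays 16 to 18, beside 13.6% and 16.9%. Nqo1, a quinone reductase gene, was 5.08 higher with the C-fragment than with void. After normexp background correction it was 1.46 higher, so the size depends on how background is handled. N+C differed from N-fragment by 0.38 ± 0.23 (adjusted p = 0.284). Gstm1, a glutathione transferase gene, rose with N+C from 1.99, 2.09 and 2.19 to 2.74, 2.88, 2.85, 3.30 and 3.23 (0.91 ± 0.11, adjusted p = 1.86e-05).

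Cell-cycle genes were called both ways, with small list medians. Of 25 DNA replication genes 5 rose and 4 fell (median 0.05), and of 24 mitosis genes 4 rose and 5 fell (median -0.08). Of 12 G1 control genes 5 rose and 1 fell (median 0.11). The shares of all genes were 12.6% higher and 9.52% lower. On arrays 16 to 18, 4 mitosis genes rose and 9 fell, beside 17.8% and 15.7%. On arrays 19 and 20, 3 rose and 3 fell, beside 16.2% and 10.9%. Ccnb1, the mitotic cyclin gene, read 4.79, 4.75 and 4.84 with the N-fragment against 4.28, 4.38, 4.28, 4.29 and 4.27 with N+C (-0.50 ± 0.04, adjusted p = 6.52e-07), and Ccnd1, the cyclin of early G1, rose by 0.35 ± 0.08 (adjusted p = 0.00383). Ern1, the unfolded protein sensor IRE1, fell 2.59-fold (-1.37 ± 0.11, adjusted p = 2.92e-07), while of 20 chaperone and XBP1 target genes 4 rose and 3 fell.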
